A study of Mus musculus with 2 samples.

Results

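Collagen chain genes are the genes whose symbol has the form of Col, a type number, the letter a and a chain number. In the deposited averages, 44 such genes had signal in at least 1 genotype column, of 24005 genes with signal in all, and all 44 are accounted for here. The data are single-nucleus expression averages of male mouse medial prefrontal cortex. The mice were labelled as knockouts of NPAS2, a transcription factor of the circadian clock, or as their wild-type littermates, and were killed at zeitgeber time 20 in a cycle with 12 h of light. Each genotype was 1 library, made from the pooled tissue of 4 mice, which leaves the values without replicates and allows no test between genotypes. Neither strain nor age, nor which allele of Npas2 was used, is stated in the sources used here. The table gives 2 genotype averages and the averages of 23 numbered clusters, which pool both genotypes.

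Collagens are made of 3 chains wound into a triple helix, with glycine recurring at a fixed spacing along the helix. Fibrillar chains build the fibrils of connective tissue, type IV chains the meshwork of basement membranes around brain vessels, type VI chains beaded filaments, and FACIT chains (fibril-associated collagens with interrupted triple helices) coat fibrils. Transmembrane collagens sit in the membrane of the cell that makes them and can be shed. In the brain, vessels and meninges are the classical source of collagen, and several chains are also known from neurons, where they take part in synapse formation and axon growth.

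Levels below are averages over nuclei of normalized expression, scaled to 10000 counts in each nucleus, and counts are of unique molecular identifiers (UMIs). The table implied 7161 nuclei in the knockout-labelled and 5578 in the wild-type-labelled library, with estimated depths of 3282 and 4048 UMIs per nucleus. A level of 0.00128 and 0.00133 corresponds to 3 UMIs in the respective library. Npas2 itself had a level of 1.39 in the knockout-labelled and 1.29 in the wild-type-labelled library, so it was not lower there, and every direction below rests on the label. The libraries also differed in makeup: by an estimate from the table, non-neuronal clusters held 5.51% of the nuclei labelled knockout and 14.1% of those labelled wild-type, and cluster 6, with 12 of 12 striatal spiny projection neuron markers raised, held 1.55% and 10.3%. Markers of olfactory bulb cells, on a list of 6, summed to a level of 1.26 in the knockout-labelled and 0.323 in the wild-type-labelled library. These differences move with several results below, and for many of them the log2 ratio expected from nuclei per cluster is given.

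Promoter sequences were available in RefSeq (GRCm38.p6) for 35 of the 44 genes, in 38 windows, and the 250 bases before each start were searched. The sequences shown are those of the pair of collagen genes with the highest ratios of knockout over wild-type among the better measured genes, Col24a1 and Col23a1, and of Col5a1, whose signal lay mostly in 1 cluster. They are written 5′ to 3′ on the plus strand, lie outside annotated exons, and capitals mark GGGCGG or its reverse complement CCGCCC.
Col24a1, chr3:145292222-145292471: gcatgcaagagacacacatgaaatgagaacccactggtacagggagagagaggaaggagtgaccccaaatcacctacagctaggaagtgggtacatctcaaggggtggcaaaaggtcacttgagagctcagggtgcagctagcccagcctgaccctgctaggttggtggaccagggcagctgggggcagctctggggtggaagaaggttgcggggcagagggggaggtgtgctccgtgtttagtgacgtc
Col23a1, chr11:51289670-51289919: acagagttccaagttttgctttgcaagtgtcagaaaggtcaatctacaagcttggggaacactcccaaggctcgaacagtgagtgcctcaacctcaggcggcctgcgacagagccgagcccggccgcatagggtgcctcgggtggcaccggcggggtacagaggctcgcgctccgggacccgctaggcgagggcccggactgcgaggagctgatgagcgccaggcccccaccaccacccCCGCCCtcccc
Col5a1, chr2:27886175-27886424: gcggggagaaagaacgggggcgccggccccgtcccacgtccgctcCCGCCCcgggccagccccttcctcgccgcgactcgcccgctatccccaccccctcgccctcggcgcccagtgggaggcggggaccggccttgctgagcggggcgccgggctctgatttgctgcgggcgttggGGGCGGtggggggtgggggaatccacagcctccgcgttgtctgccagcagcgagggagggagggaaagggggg
CACGTG, the palindromic E-box known to be bound by NPAS2 with its partner, was found in 0 of the 38 collagen windows and in 6.02% of 32851 windows of all genes. GGGCGG on either strand was found in 22 collagen windows (57.9%), against 32.7% of all windows. The Col24a1 window held 3 CpG pairs, that of Col23a1 18 and that of Col5a1 28, and the median was 9.5 over collagen windows and 6 over all windows. The absence of a match says only that these letters are not in these windows.

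The signal of most collagen genes lay in neuronal clusters, as did that of most genes. Clusters were described with marker lists, and a marker counted as raised when it reached 2-fold of its median across clusters with a mean of at least 0.05. By the list with the largest share raised, 17 clusters were neuronal and 6 were not (8, 14, 18, 19, 21 and 22), and these 6 held 9.26% of all nuclei. For 39 of the 44 collagen genes, over 50% of the signal summed over nuclei lay in neuronal clusters. The exceptions were Col1a2, Col3a1, Col4a5, Col13a1 and Col27a1. Among the 19 collagen genes above the floor on low values described below, Col27a1 was the only exception, and 97.8% of all genes above that floor had over 50% there. No such share is given for all genes below it. With every cluster given equal weight the count was 29. The median share in non-neuronal clusters was 9.19% for the 19 collagen genes above the floor, 25.8% for the 25 below it, and 10.7% for all genes above it.

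**Figure D1:**
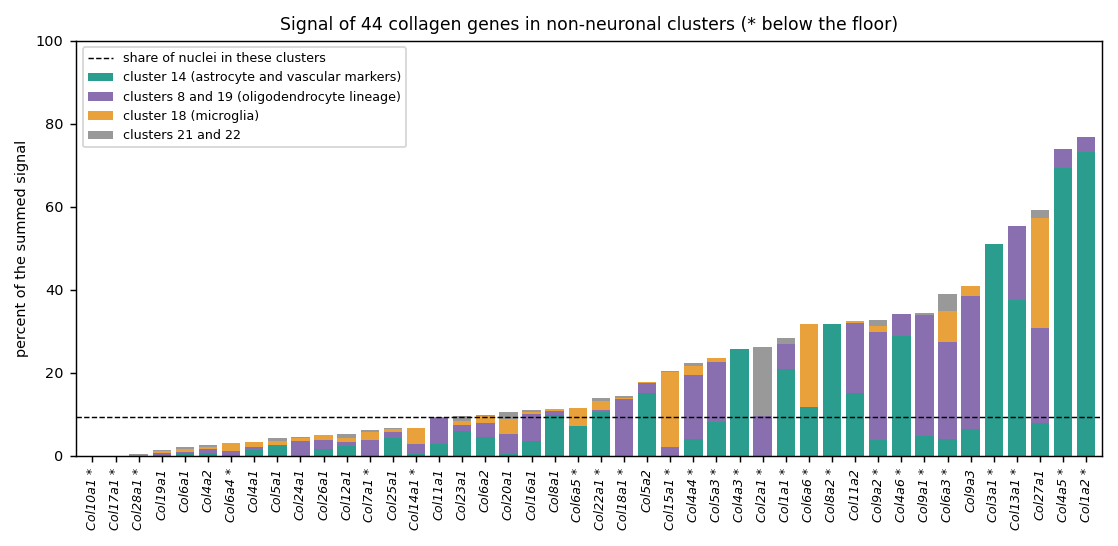
Percent of each collagen gene's signal, summed over nuclei of both genotypes, that lay in non-neuronal clusters, stacked by cluster group for all 44 genes; the dashed line is the 9.26% of nuclei in those clusters, and an asterisk marks a gene below the floor. Col1a2 and Col4a5 stand at the right with most of their signal in cluster 14, and Col10a1 and Col17a1 at the left have none in these clusters.

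Where clusters are ranked below, the ranking is over the 21 clusters of at least 50 nuclei. Inhibitory-like clusters were highest for a group of collagen genes. Col19a1, a FACIT chain known in mouse brain from interneurons and from the formation of inhibitory synapses, had its highest mean, 6.05 (95% counting interval 5.62 to 6.51), in cluster 13, an inhibitory-like cluster with Sst raised. Cluster 9, with Pvalb raised, followed at 3.38 (3.05 to 3.72) and cluster 12, with Vip and Lamp5 raised, at 2.87 (2.53 to 3.24), and the intervals of these last clusters overlap. Cluster 1, excitatory-like with Cux2 raised, came next at 1.83 (1.72 to 1.94), while cluster 5, with Fezf2 raised, had 0.0305. Cluster 1, with 1570 nuclei, held 25.6% of all Col19a1 signal, and cluster 13 held 20.3%. Neuronal clusters together held 98.7% of it.

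Col25a1, a transmembrane collagen known as the precursor of a component of amyloid plaques, was highest in cluster 11 at 6.47 (6.01 to 6.96). Cluster 11 is an inhibitory-like cluster with Sst and Nos1 raised and Ano1 in the lead. Cluster 12 had 3.45 (3.08 to 3.85), cluster 20 had 3.0 (2.28 to 3.88), and these intervals overlap, as do those of cluster 14 at 2.62 (2.11 to 3.21) and cluster 0 at 2.28 (2.17 to 2.40). Cluster 10, with neuroblast markers, was lowest at 0.193 among clusters of 50 or more nuclei. Overlapping small genes on the same strand, among them Gm9397, could share counts with Col25a1. Col26a1, a secreted collagen of the extracellular matrix, was highest in cluster 12 at 0.635 (0.481 to 0.822), then in cluster 9 at 0.461 (0.347 to 0.600) and cluster 0 at 0.428 (0.380 to 0.480). Cluster 0, excitatory-like with Rorb raised, held 42.9% of Col26a1 signal.

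Excitatory-like clusters with Foxp2 raised carried another group. Col12a1, a FACIT chain that binds type I fibrils, had 2.79 (2.36 to 3.26) in cluster 15, 2.01 (1.86 to 2.16) in cluster 2 and 1.29 (1.06 to 1.55) in cluster 16, all of which had Foxp2 and Fezf2 raised, and these intervals do not overlap. Cluster 21, with 37 nuclei, had 1.40 (0.793 to 2.30) on about 19 UMIs, cluster 14 had 0.401, and cluster 2 alone held 49.7% of Col12a1 signal. Col5a1, a fibrillar chain that starts and limits fibril assembly, had 0.525 (0.452 to 0.607) in cluster 2 and 0.139 (0.0583 to 0.278) in cluster 15, and cluster 2 held 62.3% of its signal. Both genes were among the 10 genes with the highest fold in cluster 2, and since every gene of the nuclei may have shaped the clusters, all heights by cluster are descriptions. Col23a1, a transmembrane collagen, was also highest in cluster 2 among clusters of at least 50 nuclei, at 0.935 (0.837 to 1.04), with 0.887 (0.630 to 1.21) in cluster 17, which had 5 of 6 olfactory bulb markers raised. In the small cluster 21 Col23a1 had 0.958 (0.469 to 1.74) on about 13 UMIs. Col8a1, a short-chain collagen of vessel walls, was highest in cluster 5, at 0.335 (0.274 to 0.405), where 31.2% of its signal lay.

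Cluster 20, an excitatory-like cluster of only 52 nuclei with Nr4a2, Ntng2 and Oprk1 among its leading genes, stood out for a pair of fibrillar chains. Col11a1, a chain of cartilage fibrils, had a mean of 7.71 (6.52 to 9.05) there on about 172 UMIs, and the next cluster, cluster 11, had 0.999 (0.823 to 1.20). Col24a1, a fibrillar chain known from developing bone and cornea, had 3.50 (2.72 to 4.44) there on about 78 UMIs, with 0.698 (0.494 to 0.957) in cluster 15 and 0.611 (0.401 to 0.891) in cluster 17. Both genes were among the 10 genes with the highest fold in cluster 20. These nuclei held 10.2% of Col11a1 signal and 15.2% of Col24a1 signal, and cluster 4, inhibitory-like with 3 of 6 olfactory bulb markers raised, held 19.2% of Col24a1 signal.

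**Figure D2:**
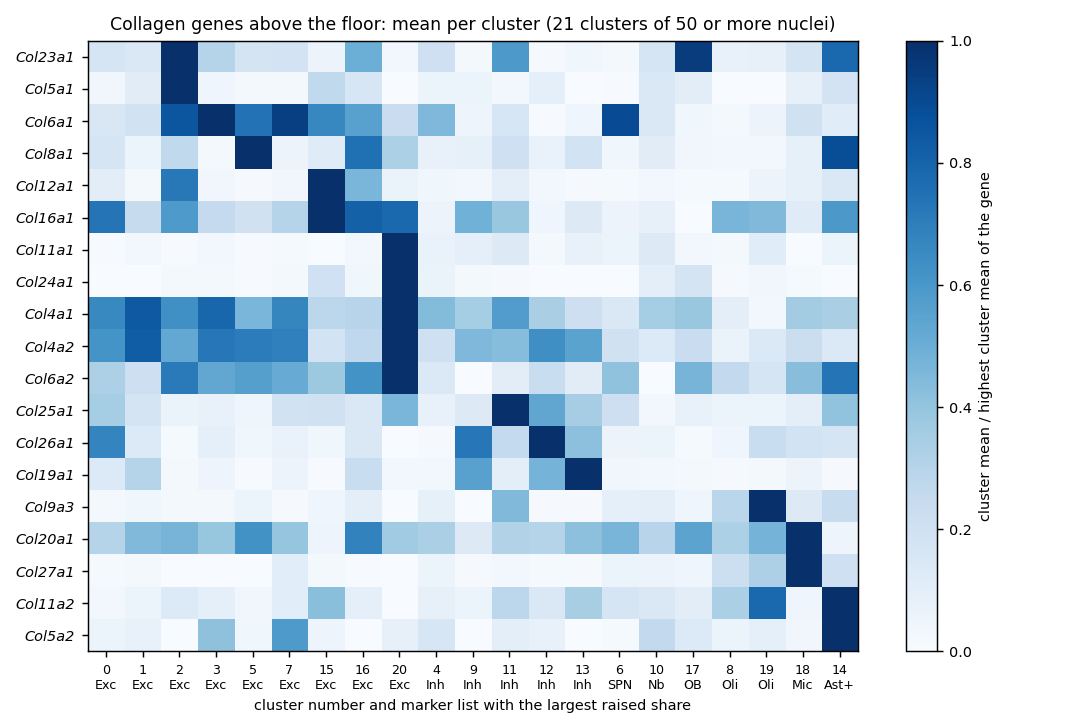
Mean level of the 19 better measured collagen genes in the 21 clusters of at least 50 nuclei, each row divided by its highest cluster. Columns carry the cluster number and the marker list with the largest share raised: excitatory (Exc), inhibitory (Inh), striatal spiny projection (SPN), neuroblast (Nb), olfactory bulb (OB), oligodendrocyte (Oli), microglia (Mic), and astrocyte together with vascular markers (Ast+). Col19a1 peaks in cluster 13, Col25a1 in cluster 11, Col12a1 in cluster 15, and Col11a1 and Col24a1 in cluster 20.

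The main basement membrane chains lay in neuronal clusters. Col4a1 and Col4a2 encode the chains of the ubiquitous type IV trimer, and mutations in either are known to cause disease of small brain vessels. Neuronal clusters held 96.8% of Col4a1 signal and 97.6% of Col4a2 signal, while cluster 14, with its vascular markers, held 1.37% and 0.582%. Both were highest in the small cluster 20, with intervals that overlap those of cluster 1. Col4a1 had 0.503 (0.447 to 0.565) in cluster 1 and 0.473 (0.406 to 0.548) in cluster 3, against 0.203 in cluster 14 and 0.0605 in cluster 8, which is oligodendrocyte-like with 9 of 9 markers raised. Col4a2 had 1.71 (1.61 to 1.82) in cluster 1, 1.51 (1.39 to 1.64) in cluster 3 and 1.47 (1.34 to 1.60) in cluster 5, against 0.287 in cluster 14 and 0.136 in cluster 8. The genes lie head to head on chromosome 8, Col4a1 on the minus strand (11198423 to 11312826, mm10) and Col4a2 on the plus strand (11312805 to 11449287), and their annotated ends overlap by 22 bases. Their levels over the 21 clusters of at least 50 nuclei had a Pearson correlation of 0.81 and a Spearman correlation of 0.75, given as a description, since clusters share libraries and depth.

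The other type IV pairs were distributed otherwise. Col4a5 and Col4a6, head to head on chromosome X with start sites 1309 bases apart, had 69.2% and 28.7% of their signal in cluster 14, with means there of 0.619 and 0.168. Over the same 21 clusters both were highest in cluster 14, and they had a Pearson correlation of 0.96 and a Spearman correlation of 0.39. Col4a3 and Col4a4, chains of the trimer typical of kidney and lung, have start sites 72 bases apart on chromosome 1. They had a Spearman correlation of 0.10, with 25.8% of Col4a3 signal in cluster 14 and no more than 15.6% of Col4a4 signal in any cluster. These 4 genes had between 6.16 and 56.6 estimated UMIs per library at its average depth, which overstates Col4a5, whose signal lay mostly in cluster 14.

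The better measured type VI chains, Col6a1 and Col6a2, also lay mostly in neuronal clusters, with 98.0% and 90.1% of their signal there. Of the others, all below the floor, Col6a3 and Col6a6 had 39.0% and 31.6% in non-neuronal clusters, and Col6a4 and Col6a5 3.11% and 11.4%. Col6a1 (chromosome 10, 76708792 to 76726168) had 1.22 (1.11 to 1.34) in cluster 3, 1.15 (1.0 to 1.31) in cluster 7, 1.09 (0.947 to 1.24) in the striatal cluster 6 and 1.04 (0.940 to 1.16) in cluster 2, with overlapping intervals. In inhibitory-like clusters it was low, at 0.0090 in cluster 12, 0.055 in cluster 13 and 0.061 in cluster 9. Col6a2, its neighbour and partner chain, had 0.247 in the small cluster 20, 0.182 in cluster 14 and 0.176 (0.135 to 0.225) in cluster 2. It was listed at 0 in clusters 9 and 10. The Spearman correlation of both genes over 21 clusters was 0.49. Col16a1, a FACIT chain, had 0.548 (0.369 to 0.782) in cluster 15 and 0.025 in cluster 12, was listed at 0 in cluster 17, and had 29.4% of its signal in cluster 0.

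Some chains had their highest mean in a glial cluster. Col27a1, a fibrillar chain, was highest in cluster 18, which is microglia-like with 10 of 10 markers raised, at 1.39 (0.964 to 1.95), and had 0.454 (0.259 to 0.738) in cluster 19. Only 40.8% of its signal lay in neuronal clusters. Col9a3, a chain of the FACIT type IX, was highest in cluster 19, at 0.681 (0.436 to 1.01). Cluster 19 had 8 of 8 markers of oligodendrocyte precursors and 9 of 9 of oligodendrocytes raised. Col9a2 was highest in the same cluster at 0.263, and Col9a1 in cluster 8 at 0.098. Col18a1, the source of endostatin, had 0.382 (0.206 to 0.648) in cluster 19 on about 16 UMIs. It had 0.224 (0.145 to 0.330) in cluster 11, an interval that overlaps the former, and 0.169 in cluster 3. Neuronal clusters held 85.7% of Col18a1 signal. Col15a1, the other collagen of that class, had 0.349 (0.155 to 0.676) in cluster 18 on about 10 UMIs. Neuronal clusters held 79.5% of Col15a1 signal, with 31.0% in cluster 0. Col14a1, a FACIT chain, had 0.511 in the inhibitory-like cluster 12, with 41.4% of its signal.

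The chains that define connective tissue fibrils were scarce. Cluster 14 (270 nuclei) had 9 of 9 astrocyte, 7 of 8 endothelial, 5 of 8 pericyte and smooth muscle and 5 of 8 leptomeningeal markers raised. It also had 7 of 8 oligodendrocyte precursor, 8 of 10 microglia and 6 of 9 oligodendrocyte markers raised, so the cells of vessels and meninges cannot be told apart there from several kinds of glia, and the cluster is left unnamed. It held 73.1% of the signal of Col1a2, 51.0% of that of Col3a1 and 20.9% of that of Col1a1. Col1a2 had a mean of 0.441 there, Col3a1 of 0.109 and Col1a1 of 0.075. Col5a2 and Col11a2 also had their highest mean in cluster 14, at 0.415 (0.230 to 0.689) and 0.349 (0.182 to 0.606). In the whole data set Col1a1 and Col1a2, which together form type I collagen, had about 24.5 and 24.8 UMIs in the knockout-labelled and 8.94 and 35.4 in the wild-type-labelled library.

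Between genotypes, collagen genes were compared where the mean of both libraries was at least 0.0461, the median of all genes with signal. This floor kept 19 of the 44 collagen genes and 12003 genes in all, and within the 19 the estimated UMIs ranged from 70.8 to 3067 per library. At least 2-fold apart on a log2 scale with a pseudocount of 0.01 was 1 collagen gene, Col9a3, which was lower in the knockout-labelled library, and 2.93% of all genes (0.567% higher, 2.37% lower). Of the 19, 10 were higher and 9 lower, with a median log2 ratio of 0.16, against 40.8% higher, 59.2% lower and a median of -0.06 for all genes. The median over all 44 collagen genes, without the floor, was -0.06. The counting interval of the ratio excluded 1 for 14 of the 19 (8 higher, 6 lower), and for 51.7% of all genes (20.3% higher, 31.4% lower). It rests on the average depth of a library, so it can be too narrow for genes whose signal lies in clusters of lower depth. It covers counting error only, so genotype, library and differences between mice cannot be told apart. Nor can fewer nuclei of a type and less RNA per nucleus be told apart in a library average.

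Fibrillar chains went both ways. Col24a1 (chromosome 3, 145292472 to 145552011) had a level of 0.123 in the knockout-labelled and 0.0576 in the wild-type-labelled library, about 289 and 130 UMIs. That is a ratio of 2.13 (1.66 to 2.76), with a log2 ratio of 0.98 on the pseudocount scale, just short of 2-fold. Of this log2 ratio, 0.50 was expected from the estimated nuclei per cluster, which take in the larger share of cluster 4 in the knockout-labelled library (11.1% against 3.58% of nuclei). Overlapping noncoding genes lie on both strands of Col24a1, and whether counting used strand is not stated in the sources used here.

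Col5a2, partner of Col5a1 in type V fibrils, had 0.0689 in the knockout-labelled and 0.0451 in the wild-type-labelled library, a ratio of 1.53 (1.13 to 2.08) against an expected log2 ratio of 0.07. Col5a1 had 0.0761 and 0.0812, a ratio of 0.937 (0.730 to 1.20) whose interval holds 1. Both type XI chains were lower in the knockout-labelled library. Col11a1 (chromosome 3, 114030540 to 114220718) had 0.263 there and 0.369 in the wild-type-labelled library, 1.41-fold lower (1.24 to 1.59), with an expected log2 ratio of 0.01 against an observed -0.48. Col11a2 had 0.0400 and 0.0616, 1.54-fold lower (1.12 to 2.12), with -0.38 expected of -0.52. Col27a1 had 0.0623 and 0.10, 1.61-fold lower (1.25 to 2.07), and its log2 ratio of -0.61 lay near the -0.70 expected from nuclei per cluster. Markers of microglia, where this gene is highest, were lower for 9 of 9 members above the floor, with summed levels of 2.40 and 4.14.

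**Figure D3:**
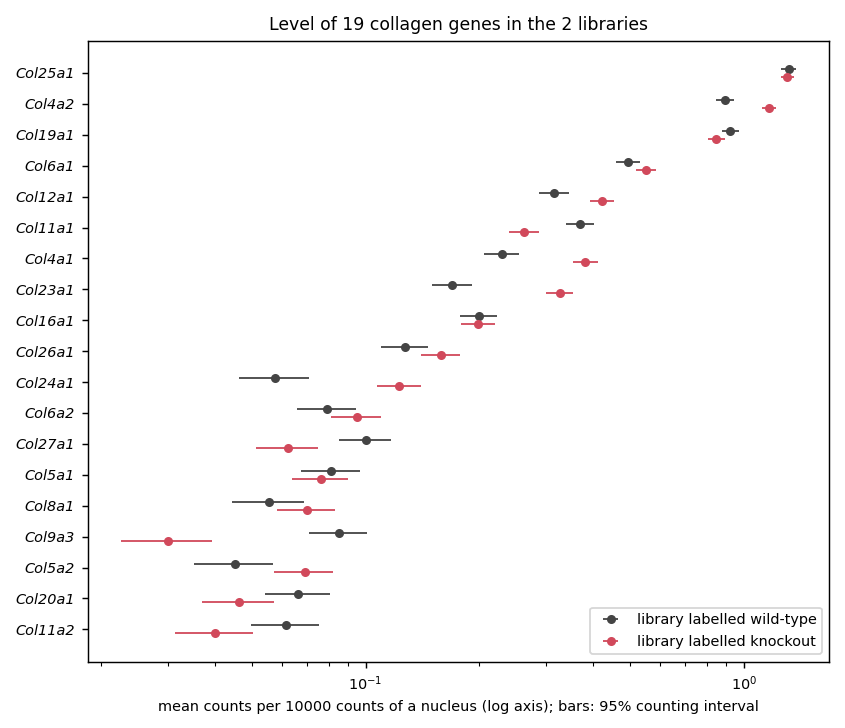
Level of each of the 19 collagen genes in the knockout-labelled library (red) and the wild-type-labelled library (grey), as mean counts per 10000 counts of a nucleus on a log axis, with 95% counting intervals. The intervals of Col9a3, Col24a1, Col23a1 and Col4a1 lie apart between the libraries, and those of Col16a1 and Col25a1 overlap.

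The type IV chains of the ubiquitous trimer were both higher. Col4a1 had 0.381 in the knockout-labelled and 0.229 in the wild-type-labelled library, a ratio of 1.66 (1.46 to 1.90). Col4a2 had 1.16 and 0.893, a ratio of 1.30 (1.22 to 1.40). Their log2 ratios of 0.71 and 0.38 were above the 0.15 and 0.11 expected from nuclei per cluster. The 4 other type IV genes lay below the floor, and each of their intervals held 1. Of 8 endothelial markers, 3 were higher (Tek, Egfl7 and Pecam1) and 5 lower, and the list summed to 0.725 in the knockout-labelled and 0.564 in the wild-type-labelled library. Tek had only 1.55% of its signal in cluster 14, whereas Flt1 and Cdh5, with 59.5% and 63.6% there, had levels of 0.00943 and 0.000404 in the knockout-labelled and 0.0382 and 0.00478 in the wild-type-labelled library. None of these markers was listed at 0 in a library, and the part of endothelial cells in the type IV values was not tested.

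The transmembrane collagens differed from each other. Col23a1 (chromosome 11, 51289920 to 51583918) had 0.326 in the knockout-labelled and 0.170 in the wild-type-labelled library, about 766 and 383 UMIs, a ratio of 1.92 (1.66 to 2.23). Its log2 ratio was 0.90, and 0.11 was expected from nuclei per cluster. Col25a1 (chromosome 3, 130131501 to 130599877) had 1.30 and 1.31 on about 3067 and 2965 UMIs, a ratio of 0.994 (0.936 to 1.05), with a log2 ratio of -0.01 against -0.20 expected. Col13a1, which is known from neuromuscular junctions, and Col17a1, from the skin, had no more than 14.4 estimated UMIs in a library.

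Among FACIT chains, Col9a3 (chromosome 2, 180597790 to 180622189) had 0.0301 in the knockout-labelled and 0.0849 in the wild-type-labelled library, about 70.8 and 192 UMIs, and was 2.82-fold lower (2.04 to 3.95). Its log2 ratio was -1.24, with -0.51 expected from nuclei per cluster and -0.73 left after subtraction, so it was no longer 2-fold apart. Its antisense neighbour Tcfl5 overlaps it. Oligodendrocyte precursor markers, high in the cluster where Col9a3 peaked, were lower for 5 of 6 members above the floor. That list summed to 5.26 and 6.94, of which Lhfpl3, the member that was higher, made up 3.36 and 3.24. Lhfpl3 had only 20.2% of its signal in cluster 19. Oligodendrocyte markers were lower for 9 of 9 members, with summed levels of 3.24 and 10.1. Of the other type IX chains, both below the floor, Col9a1 had 0.00507 and 0.0230, 4.55-fold lower (2.15 to 10.7) on about 11.9 and 52.0 UMIs with -0.24 expected of a log2 ratio of -1.13, and Col9a2 0.0194 and 0.0209, a ratio of 0.930 (0.559 to 1.55).

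Col12a1 had 0.422 in the knockout-labelled and 0.316 in the wild-type-labelled library, a ratio of 1.34 (1.19 to 1.5), with a log2 ratio of 0.41 against 0.07 expected. At least 25.9% of the signal of its main cluster, cluster 2, must have come from nuclei labelled knockout, since the wild-type-labelled library holds too little in all. The knockout-labelled library held an estimated 58.8% of the nuclei of cluster 2. A bound below that share cannot show whether the libraries differ within the cluster. Col19a1 had 0.846 and 0.920, a ratio of 0.919 (0.855 to 0.989). With values scaled to the median ratio of all genes this interval held 1, from 0.892 to 1.03. Col20a1 had 0.0463 and 0.0665, 1.43-fold lower (1.06 to 1.94), and Col16a1 0.198 and 0.199, a ratio of 0.997 (0.854 to 1.16).

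The type VI chains Col6a1 and Col6a2 had ratios of 1.12 (1.01 to 1.23) and 1.20 (0.945 to 1.52), the second with an interval that holds 1. Col6a1 had a level of 0.551 in the knockout-labelled and 0.494 in the wild-type-labelled library. Col6a4 and Col6a3 went the other way below the floor. Col6a4 had 0.0213 and 0.0579, 2.71-fold lower (1.84 to 4.07), against an expected log2 ratio of -0.18 and an observed one of -1.12. Col6a3 had 0.00470 and 0.0146, 3.12-fold lower (1.36 to 7.89). The last genes above the floor were Col8a1, with 0.0698 and 0.0555 and a ratio of 1.26 (0.949 to 1.68), and Col26a1, with 0.158 and 0.127 and a ratio of 1.24 (1.03 to 1.5).

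**Figure D4:**
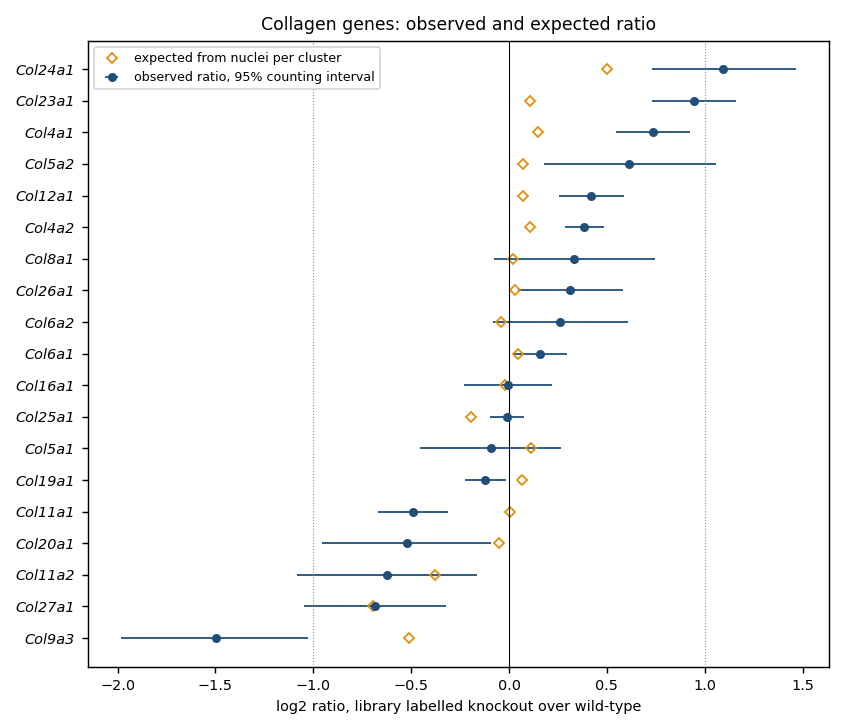
Log2 ratio of the knockout-labelled library over the wild-type-labelled library for 19 collagen genes, without pseudocount, as points with 95% counting intervals. Open diamonds are the values expected from the estimated nuclei per cluster, and dotted lines mark 2-fold. The expected values include the pseudocount, which draws low genes towards equal levels, so the drawn gaps between points and diamonds mix both scales. Col27a1 lies close to its expected value, while Col23a1, Col4a1, Col11a1 and Col9a3 lie away from theirs. With the pseudocount on both sides, the log2 ratio minus the expected value was 0.80 for Col23a1 and 0.56 for Col4a1. It was -0.48 for Col11a1 and -0.73 for Col9a3.

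The 25 collagen genes below the floor had means of both libraries from 0.00242 to 0.0407 and from 11 to 188 estimated UMIs in all. Their intervals lay above 1 for 2 (Col1a1 and Col3a1), below 1 for 4 (Col6a3, Col6a4, Col9a1 and Col28a1), and held 1 for the others, and all are named here after their values were seen. Over all 12002 genes below the floor, 3.32% of intervals lay above 1 and 11.5% below, 14.8% in all. Col28a1 had 0.0161 in the knockout-labelled and 0.0400 in the wild-type-labelled library, 2.49-fold lower (1.57 to 4.01), against 0.05 expected on the log2 scale. Col1a1 had 0.0104 and 0.00396, a ratio of 2.64 (1.02 to 7.97). Among those with intervals that hold 1 were Col2a1, Col5a3, Col6a5, Col6a6, Col7a1, Col8a2, Col10a1 and Col22a1.

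Col3a1 (chromosome 1, 45311538 to 45349706), a fibril chain of vessel walls and a known ligand of the receptor Adgrg1 in the developing cortex, was nearly confined to 1 library. It had 0.00792 in the knockout-labelled library, about 18.6 UMIs at the average depth of that library. In the wild-type-labelled library it had 0.000212, which equals exactly 1 UMI in a nucleus of 8448 UMIs, and the ratio was 37.3 (1.88 to 520). Its signal lay in 8 clusters, and in 7 of them the value equals 1 UMI. The 18.6 is therefore probably too high and the interval too narrow. Its signal in cluster 14 amounted to only about 4.46 estimated UMIs, with a mean interval of 0.0289 to 0.285. At least 96.0% of it came from nuclei labelled knockout, although that library holds an estimated 30.3% of the nuclei of this cluster. So few UMIs, possibly from few nuclei, cannot show whether the libraries differ within the cluster. For Col1a2 in the same cluster the bounds were at least 26.6% from nuclei labelled knockout and at least 36.6% from nuclei labelled wild-type, so both libraries contributed. Of the leptomeningeal markers, Dcn had 0.0244 and 0.0129, a ratio of 1.89 (1.09 to 3.38), and Slc6a13 0.00940 and 0.00342, a ratio of 2.75 (0.992 to 9.17). Of the 7 leptomeningeal markers with signal, 5 were higher (Dcn, Lum, Slc6a13, Slc22a6 and Aldh1a2) and 2 lower (Ogn and Ptgds), and Igf2 was listed at 0. The list summed to 4.32 in the knockout-labelled and 6.77 in the wild-type-labelled library, of which Ptgds made up 4.25 and 6.72. Ptgds had 32.4% of its signal in the oligodendrocyte-like cluster 8 and 7.22% in cluster 14, and without it the list summed to 0.0725 and 0.0524. Pericyte and smooth muscle markers summed to 0.139 and 0.286. The part of these cells in the Col3a1 values was not tested.

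Genes that make or bind collagens, or share basement membranes with them, lay on both sides of equal levels. Of all genes above the floor, for comparison with each list, 40.8% were higher, 59.2% lower and 2.93% at least 2-fold apart. Collagen synthesis and cross-linking had 18 genes over that floor, of which 10 were higher and 8 lower at a median log2 ratio of 0.10. The prolyl hydroxylases, which modify the chains before they fold, were higher for 6 of 6 members above the floor. P4ha1, a catalytic subunit, had 1.02 in the knockout-labelled and 0.941 in the wild-type-labelled library, a ratio of 1.09 (1.02 to 1.17), and P3h2 0.340 and 0.262, a ratio of 1.30 (1.14 to 1.48). P3h4, a related protein below the floor, had a ratio of 0.579 (0.388 to 0.858). This subgroup was singled out after its values were seen. Ppib, a folding enzyme, had a ratio of 0.976 (0.921 to 1.03), Adamts3, which trims procollagen, 0.734 (0.678 to 0.795), and Mia3, which loads collagen for export, 0.895 (0.816 to 0.982). Plod1, a lysyl hydroxylase with 36.5% of its signal in cluster 8, was the member at least 2-fold apart, with 0.0365 and 0.0896, 2.46-fold lower (1.82 to 3.35) and -0.75 expected of a log2 ratio of -1.10.

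Collagen receptors had 6 genes over that floor, of which 2 were higher and 4 lower at a median of -0.16. Lair1, an inhibitory collagen receptor of immune cells with 60.6% of its signal in cluster 18, had 0.10 in the knockout-labelled and 0.256 in the wild-type-labelled library, 2.55-fold lower (2.13 to 3.06), with -1.01 expected of a log2 ratio of -1.27. Itgb1, the integrin beta chain of collagen receptors, had a ratio of 0.972 (0.898 to 1.05), Ddr1 of 0.719 (0.640 to 0.808), Itga10 of 1.41 (1.15 to 1.74) and Itga11 of 1.06 (0.853 to 1.32). For Ddr1, -0.29 was expected of a log2 ratio of -0.46. The 8 basement membrane partners over the floor had 4 higher and 4 lower, a median of -0.06 and no member 2-fold apart. Agrn had a ratio of 0.906 (0.825 to 0.995), Lamc1 of 1.01 (0.910 to 1.13), Lama2 of 0.592 (0.526 to 0.666) and Sparc of 0.551 (0.452 to 0.671). Lama2 had 35.2% of its signal in cluster 14, with -0.66 expected of a log2 ratio of -0.73, and for Sparc -0.50 was expected of -0.80.

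**Figure D5:**
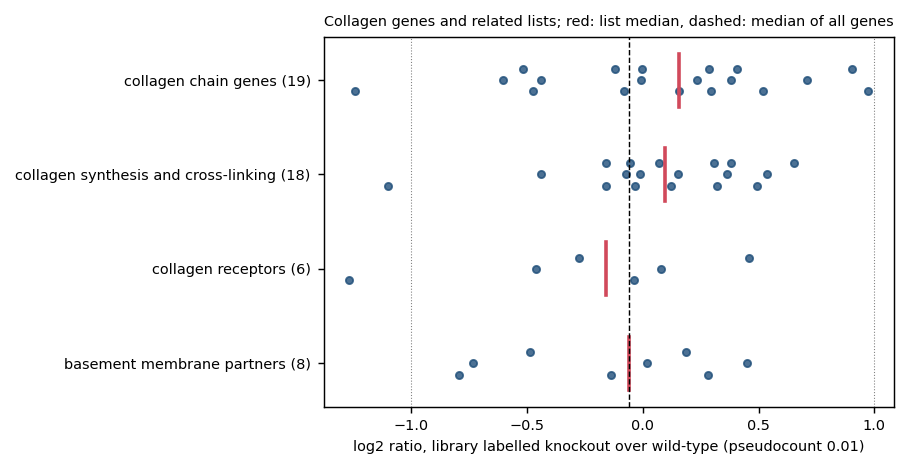
Log2 ratio, knockout-labelled library over wild-type with a pseudocount of 0.01, of each gene above the floor among collagen chains (19), collagen synthesis (18), receptors (6) and basement membrane partners (8); points are genes, spread vertically only for legibility, red bars are list medians, the dashed line is the median of all genes (-0.06) and dotted lines mark 2-fold. Each list spreads to both sides of 0, and 3 points lie beyond the 2-fold lines, all lower.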

How the data were processed

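Per the labels, each genotype's tissue, from 4 mice, was combined before nuclei were isolated and made into droplet libraries of 3' ends (10x Genomics). The genome build was mm10, per the submitters' processing notes; aligner, filters, doublet treatment and clustering are not stated in the sources used here. As deposited, the authors' table gives a linear signal, the average normalized expression, for 31053 genes. Each column summed to 10000. Nuclear 3' tags can also arise inside introns, so levels were compared within genes only.

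Nuclei per column were the whole-number weights that equate genotype and cluster columns. Depth and nuclei per cluster and library came from 3083 genes whose cluster values equal single UMIs (6273 values, tolerance 0.0001). The expected log2 ratio weights pooled cluster means by these nuclei and so contains part of each gene's own change. Ratio intervals are Clopper-Pearson at 95% and level intervals are exact Poisson, on estimated UMIs reduced for depth spread; the planned intervals needed counts, which were estimated. Steps were tested on simulated data in which depth differed by library but not by cluster. The error for genes whose signal lies mostly in 1 cluster was therefore not tested. Positions are from GENCODE M21, promoters from RefSeq GRCm38.p6. Named genes were all 44 members, related genes 2-fold apart and up to 4 others per list by mean, apart from those said to be chosen after their values were seen. Members and lists were chosen with earlier results of these data known. Python 3.11.15, numpy 2.4.6 and scipy 1.17.1 were used.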

Additional observations from a re-analysis of the deposited data

How the results depend on the processing

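The count of collagen genes at least 2-fold apart, 1 as reported (Col9a3; 2.93% of all genes), was small and moved with each alternative: 3 without the floor (Col9a3, Col9a1 and Col6a4; 2.58% of all genes), 2 with ratios centred on the median of all genes (2.74%) and 2 with a pseudocount of 0.001 (3.48%), Col9a3 and Col24a1 in both, 5 at a threshold of 1.5-fold (9.82%), 0 with a pseudocount of 0.1 (0.983%) and 0 once the ratio predicted by nuclei per cluster was subtracted (0.633%). The related lists had 2 such genes, 2 without the floor, 2 when centred and 0 with a pseudocount of 0.1. The count of intervals that exclude 1 was 13 when centred and 20 without the floor, both chosen after seeing the data. The subtraction moved 6 of 19 log2 ratios beyond their counting interval. The pseudocount understates low genes, and Col3a1, Col8a2 and Col13a1 rest on fewer than 4 UMIs in 1 library. Leaving out a cluster per library was not run, since cluster columns pool the genotypes. No paired analysis was possible because each genotype is 1 library.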
